A study of Mus musculus with 5 samples.

Results

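The cells described here are enterochromaffin (EC) cells of the mouse small intestine that carry Serpina1c transcripts and little or no Afp transcript. They were picked from the counts themselves. A cell was kept if Serpina1c reached 5 or more unique molecular identifiers (UMIs, each standing for 1 captured transcript) per 10000 UMIs of the cell, Tph1 reached 10 or more, Afp stayed under 5, Tac1 under 30, Sct under 1500, Cck under 200, Gip under 500, and the goblet genes Zg16, Fcgbp, Clca1 and Spink4 together under 500. This gave 540 cells of the 9451 kept from the library, which is 5.71% (exact binomial 95% interval, 5.25 to 6.20). The 9451 are all barcodes that passed limits on genes and mitochondrial UMIs. The paper states the same limits and kept fewer cells of this library, so the cell sets differ. The 540 cells are called Serpina1c cells below. These 11 genes defined the cells, so their levels are given as a description.

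The cells came from 1 droplet library of tdTomato+ cells sorted from small intestine epithelium, pooled from 4 C57Bl/6J mice aged 6 weeks that received no treatment. All of them carried Neurog3-Cre and R26-LSL-tdTomato. Neurog3 is switched on in endocrine progenitors, so the reporter marks the descendants of cells that once used this promoter, and not endocrine cells alone: 4440 of the 9451 cells were goblet cells by the 4 genes above (together 500 or more, with Tph1 under 10). Because there is 1 library, no difference below has a replicate or a test. Intervals cover counting error only, and differences between mice cannot be told apart from differences between cells.

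EC cells are the endocrine cells of the gut lining that make serotonin. Tph1 encodes the enzyme that starts serotonin synthesis, and the serotonin is packed into granules with chromogranins and, in some cells, with peptides such as substance P (from Tac1) or secretin (from Sct). EC cells are known to change their peptides as they move from crypt to villus, with Tac1 more typical of the crypt and Sct of the villus. Serpina1 genes encode alpha-1-antitrypsin, a secreted inhibitor of serine proteases best known from liver. Mice have several near-identical copies where humans have 1 gene. Afp encodes alpha-fetoprotein, a plasma protein of fetal liver and yolk sac.

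Serpina1c lies at chr12:103894926-103904887 on the minus strand of GRCm38, the build of the counts (mm10). Its copies lie beside it on the same strand: Serpina1e at chr12:103946931-103958975, Serpina1a at chr12:103853589-103863562, Serpina1d at chr12:103763594-103773592 and Serpina1b at chr12:103728156-103830373. The annotated span of Serpina1b contains that of Serpina1d. The last 500 bases of their longest coding transcripts, where reads of this 3′ assay fall, were 93.9 to 96.6% identical between Serpina1c and each of the other 4, and 13.9% of the 91-base windows of Serpina1c occurred unchanged in another copy. That share was 10.2% for Serpina1a, 7.07% for Serpina1d, 3.4% for Serpina1b and 0% for Serpina1e. With ends so alike, the division of UMIs between the 5 genes is uncertain.

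The 120 bases before the RefSeq start are shown for the copies with the most UMIs in these cells, as the copies are compared throughout. They come from RefSeq (GRCm38.p6), and capitals mark GTTAAT, a short run shared by the copies that was chosen after the sequences had been read. Serpina1c is at chr12:103904951-103905070, Serpina1e at chr12:103956898-103957017 and Serpina1b at chr12:103738190-103738309, all on the minus strand. The gene spans given above are from GENCODE M21, where the spans of Serpina1e and Serpina1b begin further upstream than in RefSeq. The stretches shown for Serpina1e and Serpina1b therefore lie inside those spans.
Serpina1c: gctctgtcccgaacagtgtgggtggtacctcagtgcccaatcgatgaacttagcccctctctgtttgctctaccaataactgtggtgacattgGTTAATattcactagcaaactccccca
Serpina1e: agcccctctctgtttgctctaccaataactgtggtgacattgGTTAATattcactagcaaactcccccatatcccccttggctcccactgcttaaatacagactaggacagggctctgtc
Serpina1b: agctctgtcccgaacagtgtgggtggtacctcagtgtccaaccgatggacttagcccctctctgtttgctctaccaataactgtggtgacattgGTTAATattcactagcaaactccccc
This run of letters occurred 1 time in the 250 bases before each of the 5 Serpina1 genes, and on either strand in 6.43% of the 32851 promoters of the RefSeq table. It was not found in the same window before Hspb1, Tgfb1, Gm4792 or Gm32585 (the name of Gm42637 in this table), which says only that these letters are not there. All 9 genes looked up had an entry.

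The 1737 cells that passed the limits on Tph1, Cck, Gip and the goblet genes, called Tph1 cells, were divided by the remaining limits in turn. First 123 Tac1 cells (Tac1 30 or more) were set apart, then 222 Sct cells (Sct 1500 or more), then 607 Afp cells (Afp 5 or more). The rest were split by Serpina1c into the 540 Serpina1c cells, 31.1% of the Tph1 cells (28.9 to 33.3), and 245 cells low in both Serpina1c and Afp, called low cells. Among barcodes that the rule of Cell Ranger 2 calls, 65 Serpina1c cells were left and their share of Tph1 cells was 18.4%. Serpina1c at 5 or more was also seen in 213 Afp cells (35.1%), 51 Sct cells (23.0%) and 7 Tac1 cells (5.69%), against 54 goblet cells (1.22%). Serpina1c transcripts were therefore not restricted to the 540 cells, and the limits cut through a continuous range, as the plot of Serpina1c against Afp shows.

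**Figure D1:**
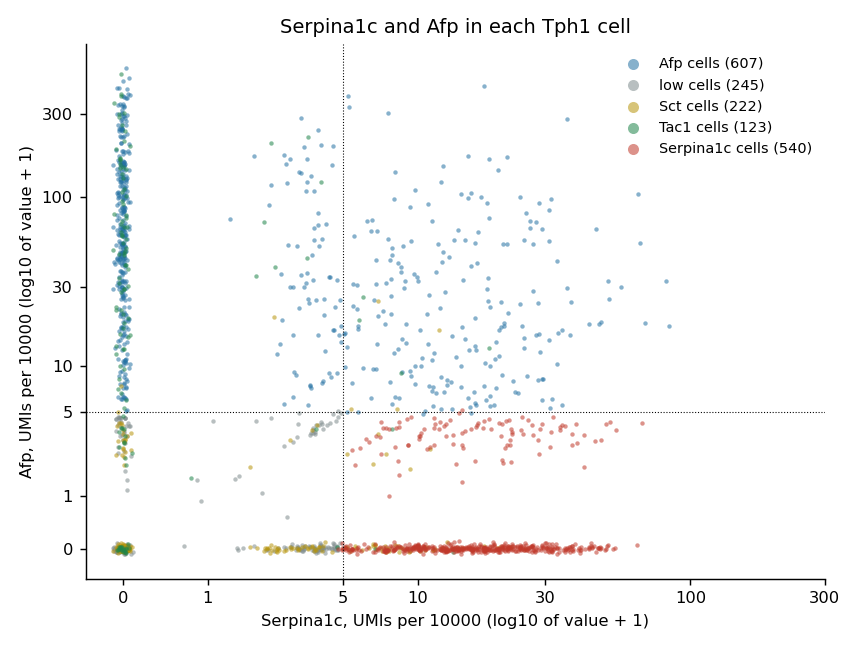
Each point is 1 of the 1737 Tph1 cells, with its Serpina1c level on the x axis and its Afp level on the y axis, both in UMIs per 10000 on a log10 (value + 1) scale with slight random shifts so that points do not cover each other. Colors give the class, and dotted lines mark the limits of 5, between which the 540 Serpina1c cells fill the lower right field without a gap to the 245 low cells or the 607 Afp cells.

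The level of Serpina1c per cell ran from 5.00 to 67.6 UMIs per 10000, with a median of 16.4 and a middle range of 10.4 to 24.1. This rested on few molecules, a median of 5 UMIs per cell. In 13 cells it was 1 UMI, in 81 cells 2 UMIs and in 446 cells 3 or more. Just inside the limit, 25 cells lay between 5 and 6, and just outside it 37 low cells lay between 4 and 5. Of the 245 low cells, 134 (54.7%) had no Serpina1c UMI. No Afp UMI was seen in 437 of the 540 cells, and 96 had 1.

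Median depth was modest and alike between the classes compared most. Levels over a class are sums of UMIs, so deeper cells weigh more in them, and the deepest low cell had 20078 UMIs. Serpina1c cells had a median of 2750.5 UMIs (1754 to 15692) and 1345 genes, low cells had a median of 2687 UMIs, Afp cells 2978, Sct cells 3631.5 and Tac1 cells 3267, while goblet cells had 6941.5. Of the 540 cells, 65 exceeded 3892 UMIs, the limit above which the rule of Cell Ranger 2 calls a barcode a cell.

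In the genes named here, which the rule did not use, the cells differed from goblet cells in the direction of their EC label. These genes were not compared with endocrine types other than EC cells. Levels here are sums of UMIs per 10000 UMIs over a class. Ddc, which encodes the enzyme that completes serotonin synthesis, stood at 3.09 in Serpina1c cells and 0.300 in goblet cells. Slc18a1, the vesicular monoamine transporter of EC cells, stood at 3.75 against 0.245. Lmx1a, a transcription factor of EC cells, stood at 2.32 against 0.0601, and Gch1, needed for the cofactor of Tph1, at 3.58 against 0.908. A UMI of Slc18a1 was present in 64.1% of Serpina1c cells and 14.5% of goblet cells at their different depths, and in 53.3% and 4.53% of cells thinned to 2000 UMIs. Chga, the granule protein chromogranin A, was detected in 100% of the cells at a level of 122.

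All 5 Serpina1 genes were at their highest level in these cells among the classes of Tph1 cells. For Serpina1c this is shaped by the rule, and Serpina1e was picked as a marker of these cells. Serpina1e, the other copy with many UMIs, stood at 10.3 UMIs per 10000 (Poisson 95% interval, 9.84 to 10.8) in Serpina1c cells. It stood at 3.81 in low cells, 3.47 in Afp cells, 4.60 in Sct cells, 0.750 in Tac1 cells and 0.162 in goblet cells, with 0.553 in free RNA, the pooled barcodes of 1 to 100 UMIs. A Serpina1e UMI was present in 83.3% of Serpina1c cells, 54.7% of low cells, 42.7% of Afp cells and 8.06% of goblet cells. Thinned to 2000 UMIs, the shares were 74.7% in Serpina1c cells and 2.70% in goblet cells.

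The 3 minor copies were also highest in Serpina1c cells, at lower levels. Serpina1b stood at 1.96 in Serpina1c cells against 0.451 in low cells and 0.293 in Afp cells. Serpina1d stood at 0.847 against 0.119 and 0.112, and Serpina1a at 0.640 against 0.249 and 0.215. Serpina1b in low, Afp and Sct cells was close to the 0.374 of free RNA, and each of the minor copies was detected in a minority of Serpina1c cells (28.7%, 17.6% and 17.0%).

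The mix of copies is given as a description. Serpina1c gave 57.6% and Serpina1e 31.8% of the 5324 UMIs of the 5 genes in Serpina1c cells, and 61.5% and 32.7% in Afp cells. In low cells Serpina1c gave 25.9% and Serpina1e 61.0%, and in Sct cells 35.4% and 58.7%. The shares in Serpina1c and low cells are shaped by the limit on Serpina1c, whereas Afp and Sct cells were set apart without use of Serpina1c. Outside the EC cells, the 176 cells with Ghrl of 1000 or more and Tph1 under 10 held another mix, with Serpina1b at 4.88, Serpina1c at 4.07, Serpina1a at 3.29 and Serpina1e at 0.804. Serpina1d stood at 1.155 there. Serpina1a, Serpina1b and Serpina1d were thus higher in those cells than in Serpina1c cells, and Serpina1c and Serpina1e lower.

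The other 3 markers were picked for these cells, so their high levels there are a description. Each was highest in Serpina1c cells, with low cells next. Hspb1, a small heat shock protein encoded at chr5:135887919-135889563 on the plus strand, stood at 9.33 in Serpina1c cells, 6.66 in low cells, 4.07 in Afp cells, 3.38 in Sct cells, 1.02 in Tac1 cells and 0.161 in goblet cells. Gm42637, a long noncoding RNA at chr5:125238314-125272815 on the minus strand that GENCODE M21 names Gm32585, stood at 8.57, 3.25, 1.84, 0.435, 0.227 and 0.0828 in the same classes. Tgfb1, the growth factor TGF-beta 1 at chr7:25687002-25705077 on the plus strand, stood at 3.94, 2.35, 1.36, 1.52, 0.296 and 0.0920. Low cells were thus nearest to Serpina1c cells in Hspb1 and Tgfb1, with ratios of 1.40 (1.27 to 1.55) and 1.68 (1.43 to 1.98), and further away in Gm42637, with a ratio of 2.63 (2.31 to 3.01).

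**Figure D2:**
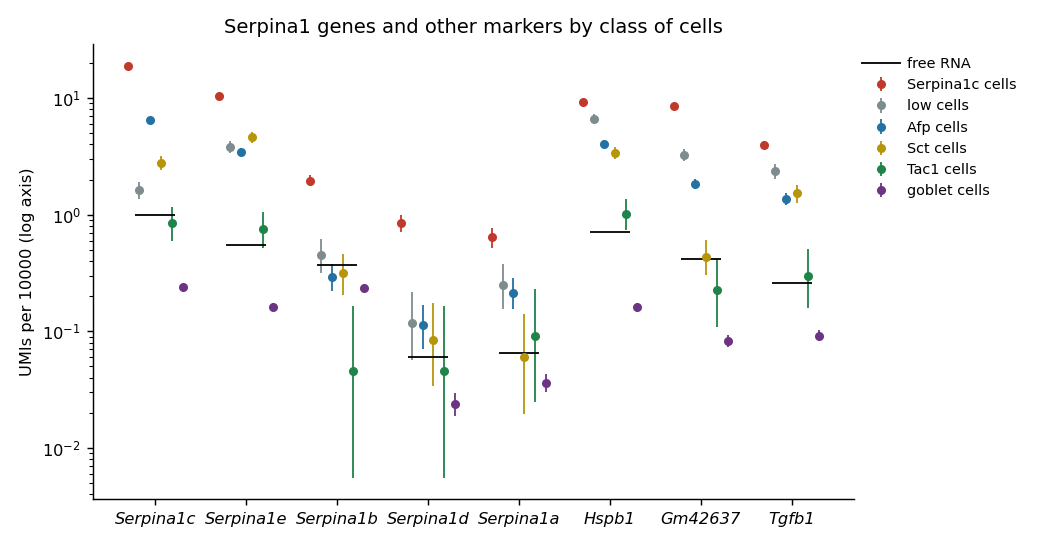
Level of 5 Serpina1 genes, Hspb1, Gm42637 and Tgfb1 in UMIs per 10000 (log axis) in each class of cells; points are sums over the class, bars are Poisson 95% intervals of counting error, and black lines give free RNA. Serpina1c cells are the highest class for all 8 genes, and goblet cells or Tac1 cells are the lowest. Serpina1c is a gene of the rule, and Serpina1e, Hspb1, Gm42637 and Tgfb1 were picked as markers of these cells.

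Detection of several markers in the same cell is given as a description, since the markers were picked for these cells. Whether they occurred together more often than their single shares would give was not tested. Of the 4 markers that the rule did not use (Serpina1e, Hspb1, Gm42637 and Tgfb1), 3 or 4 were detected in 72.2% of Serpina1c cells, 44.1% of low cells, 21.3% of Afp cells, 23.9% of Sct cells, 3.25% of Tac1 cells and 1.28% of goblet cells. With every cell thinned to 2000 UMIs, which left out 39 shallower Serpina1c cells, 5 low cells, 12 Afp cells and 1 Tac1 cell, the shares were 60.7%, 30.8%, 10.6%, 10.4%, 1.64% and 0.270%. All 4 markers were present in 197 Serpina1c cells, and none in 4.

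The 540 cells were also ordered by Serpina1c, the gene that chose them, and the levels below are a description of markers picked for these cells. For Serpina1e and Serpina1b, reads of Serpina1c may be part of the values, which was not tested. Of the 91-base windows at their transcript ends, 0% and 3.4% occurred unchanged in another copy. The 180 cells with the lowest Serpina1c levels (5.00 to 12.4), the 180 in the middle (12.5 to 21.2) and the 180 with the highest (21.3 to 67.6) had median depths of 2768.5, 2734 and 2774 UMIs. Serpina1e stood at 7.49, 9.99 and 13.8 in them, and Serpina1b at 0.773, 2.11 and 3.14. Gm42637 stood at 6.05, 9.54 and 10.4, Tgfb1 at 2.87, 4.12 and 4.96, and Hspb1 at 7.76, 9.93 and 10.5. For Hspb1, Gm42637 and Tgfb1 the counting intervals of the middle and highest cells overlapped.

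Genes of EC identity did not all run the same way. Tph1 stood at 43.7, 49.1 and 56.7 and Chga at 108, 126 and 134, while Sct stood at 439, 417 and 377. Galr1, the galanin receptor 1 gene, stood at 0.704, 0.689 and 0.708, values that did not differ beyond their counting intervals. Slc18a1 stood at 3.54, 4.16 and 3.56.

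**Figure D3:**
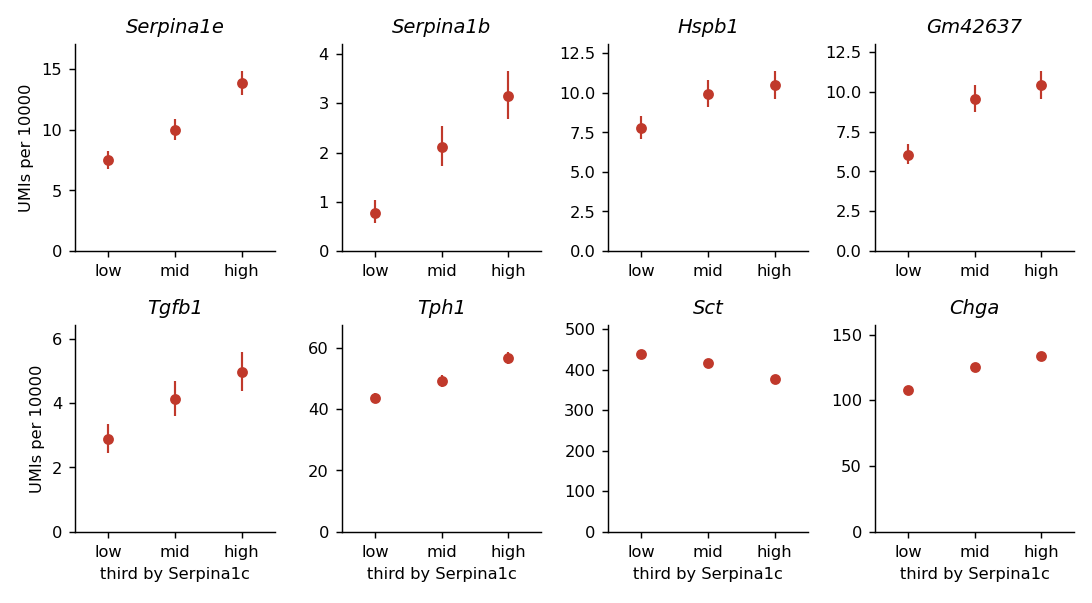
Level in UMIs per 10000 of 8 genes in the 180 Serpina1c cells with the lowest, middle and highest Serpina1c level; each axis starts at 0 and bars are Poisson 95% intervals. Serpina1e goes from 7.49 to 13.8 and Tgfb1 from 2.87 to 4.96, while Sct goes from 439 to 377.

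Transcripts of both sexes were present. A Xist UMI was detected in 141 of the 540 cells, a UMI of 4 Y-linked genes in 110, and both in 13. In the 128 cells with only Xist and the 97 cells with only Y-linked UMIs, Serpina1c stood at 18.9 and 16.2, Serpina1e at 9.18 and 10.7, Hspb1 at 8.79 and 8.94, Gm42637 at 8.67 and 7.95, and Tgfb1 at 4.11 and 3.67. All 5 markers were found in cells of both kinds.

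The nearest cells, those low in Serpina1c and Afp, differed by 2-fold in few genes, and the counts depended on the UMI limit. Of 5631 genes with 50 or more UMIs over both classes and outside the rule, 59 (1.05%) were 2-fold or more higher in Serpina1c cells. In turn, 89 (1.58%) were 2-fold or more lower. The median log2 ratio over all genes was 0.09. At a limit of 200 UMIs, which fewer genes reach, 7 were higher and 29 lower. Serpina1d (7.13-fold, 3.76 to 15.2), Serpina1b (4.35-fold, 3.10 to 6.26), Serpina1e and Serpina1a were 4 of the 59. Their transcript ends are nearly identical to that of Serpina1c, the gene that split these classes. Gm4792, a predicted protein-coding gene at chr10:94293665-94298703, was 4.48-fold higher (2.39 to 9.27), with 96 UMIs against 11. N4bp2l1 was 2.97-fold higher (2.03 to 4.46) and was present in 26.3% of Serpina1c cells and 11.4% of low cells.

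The remaining genes among the 12 with the highest ratios had few UMIs or came from few cells. Plekha3, Pip5k1a, Scgb3a1, E030030I06Rik and Pea15a had 45 to 57 UMIs in Serpina1c cells, with ratios of 2.89 to 3.21. Ccl5, a chemokine, and Gzma, a protease of cytotoxic lymphocytes, were 3.80-fold and 2.98-fold higher, but 66.8% and 51.6% of their UMIs in Serpina1c cells were in 1 cell, and Ccl5 was lower than in low cells (ratio 0.743) without the 4 smallest clusters described below. Ghrl, which encodes ghrelin, was 4.29-fold higher with 43.3% of its UMIs in 1 cell. Without the 4 cells at 100 or more, Ghrl stood at 9.58 in Serpina1c cells and 9.69 in low cells, both under the 60.8 of free RNA.

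Of the 12 genes with the lowest ratios, 11 were Retnlb, Ang4, Defa20, Defa21, Defa23, AY761184, Gm14851, Gm15292, Gm15293, Gm15315 and Gm21002, with ratios of 0.0653 to 0.176. Retnlb is a goblet cell product, and Ang4 and the defensins are antimicrobial proteins of Paneth cells. Between 35.0% and 79.0% of their UMIs in low cells were in 1 cell. All 8 listed Paneth genes were lower than in low cells by 2-fold or more, beside 1.58% of all genes. Their summed level was 52.6 in Serpina1c cells, 233 in low cells, 43.1 in Afp cells and 376 in free RNA. Without 96 cells of the 4 smallest clusters described below, 57 genes were higher and 12 lower, and none of these antimicrobial or goblet genes was among the 12.

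With those 96 cells left out, the lower genes were of another kind, and 3 are named here after their values were seen. Pyy, which encodes the hormone peptide YY, stood at 15.8 against 54.8 (ratio 0.288, 0.273 to 0.304). Ucn3, the peptide urocortin 3, stood at 0.110 against 0.690 (ratio 0.159, 0.0833 to 0.289), and Fxyd6, a regulator of the sodium pump, at 0.247 against 0.706. Ucn3 and Fxyd6 were highest in Tac1 cells, at 6.82 and 5.64. Over all 540 and 245 cells, Pyy was concentrated in some of them: 29 Serpina1c cells (5.37%) and 25 low cells (10.2%) had 100 or more, and without these it stood at 5.36 and 7.14.

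The Afp cells, set apart by Afp and free to hold any Serpina1c level, differed more. Of 6757 genes, 175 (2.59%) were 2-fold or more higher in Serpina1c cells and 158 (2.34%) lower, with a median log2 ratio of 0.15 over all genes. Gm4792 had 96 UMIs in Serpina1c cells and 10 in Afp cells, an interval of 6.23-fold to 25.7-fold higher. In turn Serpina1d, Serpina1b and Gm42637 were 7.53-fold, 6.69-fold and 4.66-fold higher. Serpina1c itself, a gene of the rule, was 2.86-fold higher and Serpina1e 2.98-fold.

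Several other genes had few UMIs in Afp cells. Galr1 stood at 0.701 in Serpina1c cells and 0.156 in Afp cells (4.48-fold, 115 UMIs against 32), with 0.356 in low cells and 0.0604 in Sct cells. Itgb7, an integrin subunit, was 5.22-fold higher, Slc39a8, a metal ion transporter, 4.71-fold, Hmgb3, a chromatin protein, 4.52-fold, and Stmn2, a microtubule regulator of neurons, 4.90-fold, although 12.7% of Stmn2 UMIs were in 1 cell. Of these, Itgb7 and Stmn2 were not particular to Serpina1c cells, with 0.408 and 0.335 there, 0.558 and 0.523 in low cells, and 0.640 and 0.555 in Sct cells. Slc39a8 likewise stood at 0.414, 0.392 and 0.833. Acot9, an acyl-CoA thioesterase, Fam83d and the noncoding RP24-294M17.1 had 49 to 55 UMIs and ratios of 4.70 to 4.90. Mgll, which encodes monoacylglycerol lipase and was picked after its values were seen, stood at 4.14 in Serpina1c cells, 2.59 in low cells, 0.963 in Afp cells and 1.58 in Sct cells.

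The 12 genes with the lowest ratios to Afp cells were of several kinds. Akr1c14, an aldo-keto reductase, had 3 UMIs in Serpina1c cells and 116 in Afp cells. Gstk1, a mitochondrial glutathione transferase, had 12 and 363, Ptgr1, a prostaglandin reductase, 25 and 382, and Fabp3, a fatty acid binding protein, 23 and 279. Alb, encoding albumin, had 1 and 83, with 25.3% of the latter in 1 cell. Cyp2j12, a cytochrome P450, had 1 and 72, and Hip1, an endocytosis adaptor, Gdf15, a stress-linked cytokine, and Mfap3l had 5, 3 and 3 against 112, 57 and 51. Hbb-bs, a globin, had 4 and 64, with 59.4% of those in 1 cell. Gstk1, Akr1c14, Hip1 and Ptgr1 were also lower in low cells than in Afp cells and as high or higher in Tac1 cells, for example Gstk1 at 0.0731 in Serpina1c cells, 0.0713 in low cells, 1.77 in Afp cells and 4.18 in Tac1 cells.

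A vesicle transporter and a peptide also stood apart from Afp cells. Slc18a2, the monoamine transporter of neurons, had 4 UMIs in Serpina1c cells, a level of 0.0244 beside 0.0249 in free RNA, and stood at 0.342 in Afp cells and 0.932 in Tac1 cells. Ucn3 stood at 0.128 in Serpina1c cells, 2.20 in Afp cells and 6.82 in Tac1 cells. Reg4, a secreted lectin chosen after its values were seen, stood at 102 in Serpina1c cells and 703 in Afp cells, and its level per Serpina1c cell ran from a lower quartile of 4.25 to an upper quartile of 155 and a maximum of 862.

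Among the genes for serotonin handling, 1 of 9 compared with low cells was lower by 2-fold or more and none was higher, beside 1.58% and 1.05% of all genes, with a median log2 ratio of 0.07. The lower gene was Maoa, which encodes a serotonin-degrading enzyme, at 0.201 against 0.439, both under the 0.493 of free RNA. Against Afp cells, 1 of 10 was higher (Maob, 0.530 against 0.249) and 1 lower (Slc18a2), beside 2.59% and 2.34% of all genes. Qdpr, which regenerates the cofactor of Tph1, stood at 3.39 in Serpina1c cells and 13.4 in Sct cells.

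Granule genes were as abundant in sum as in low cells (458 and 457), but their makeup differed. Low-cell values here and in the other lists include the deeper cells of the 4 smallest clusters described below. List sums and counts were not recomputed without those cells. Of 11 genes compared, 5 were 1.5-fold or more higher and none lower, where 8.42% of all genes were higher and 4.42% lower by that much, with a median log2 ratio of 0.39. Against Afp cells 4 of 11 were 1.5-fold or more higher and none lower, beside 11.6% and 5.33% of all genes. Pcsk1n, which encodes an inhibitor of a prohormone convertase, stood at 17.2 against 9.95 in low cells and 7.06 in Afp cells. The granins Scg2 and Scg3 stood at 1.26 and 4.31 against 0.689 and 2.61 in low cells. Scg5, a convertase chaperone, stood at 3.83 against 2.55, and Vgf, a neuropeptide precursor, at 1.18 against 0.701. Scg2 was below its free RNA level of 1.98. Chgb, the most abundant granin by UMIs, stood at 294 in Serpina1c cells, 323 in low cells, 396 in Afp cells and 634 in Tac1 cells.

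Of 8 peptide hormone genes outside the rule, 2 were 2-fold or more higher than in low cells (Ghrl and Iapp, each resting on few cells) and 3 lower (Pyy, Ucn3 and Nts), beside 1.05% and 1.58% of all genes. Sct, which encodes secretin and was limited by the rule, stood at 412, against 485 in low cells, 302 in Afp cells and 171 in free RNA. Cartpt, a peptide of nerve and endocrine cells, stood at 23.1 against 18.2 in low cells, 20.4 in Afp cells and 6.78 in Sct cells. Iapp, the islet peptide amylin, had 62.3% of its 61 UMIs in 1 cell. Nts, encoding neurotensin, stood at 1.65 against 3.88, and at 1.33 against 1.23 without cells at 100 or more. Sst, encoding somatostatin, had 76.1% of its UMIs in 1 cell, and Insl5, Penk, Gal, Vip and Edn1 had none.

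**Figure D4:**
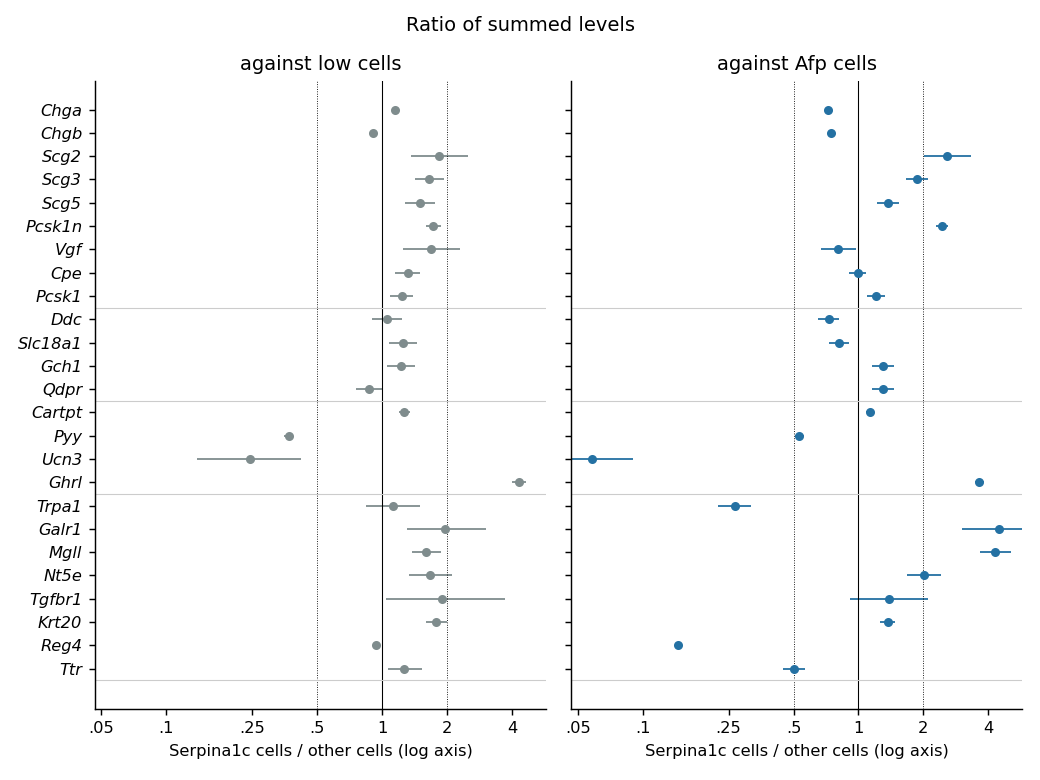
Ratio of the summed level in Serpina1c cells to that in low cells (left) and Afp cells (right), on a log axis, for granule, serotonin, hormone and other genes from top to bottom, with 95% counting intervals; dotted lines mark 2-fold. Pcsk1n, Scg2 and Scg3 lie above 1 in both panels, Trpa1 and Ucn3 lie far below 1 against Afp cells, and the Ghrl ratio rests on 4 cells.

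Among the other lists, receptors and sensors summed to 11.0 in Serpina1c cells, 9.64 in low cells and 11.4 in Afp cells. Trpa1, an irritant channel of EC cells, stood at 0.944 in Serpina1c cells, 0.843 in low cells, 3.54 in Afp cells and 7.41 in Tac1 cells. Ffar2, a receptor for short-chain fatty acids, stood at 3.67, 3.28, 2.76 and 3.07 in the same classes. In the list, 19 of 42 receptors had no UMI in Serpina1c cells, among them Piezo2, Ffar1 and Htr4. The share of all genes without a UMI is not given, so this count is a description.

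In the TGF-beta and BMP list, 3 of 13 genes compared with low cells were 1.5-fold or more higher and none lower, beside 8.42% and 4.42% of all genes. Against Afp cells 4 of 16 were higher and 1 lower, beside 11.6% and 5.33%. The 3 were Tgfb1, itself a marker chosen for these cells, with Tgfbr1, its receptor (0.317 against 0.166), and Bmp2, a ligand (0.286 against 0.166), the last with an interval of the ratio that reached below 1. Tgfbr2, the partner receptor, had 7 UMIs. Among heat shock and cytosolic chaperones none of 15 genes was higher than in low cells by 1.5-fold, where 8.42% of all genes were, and Hspb1, itself a chosen marker, was the 1 gene of 16 higher by 2-fold than in Afp cells, where 2.59% of all genes were. Endoplasmic reticulum folding genes had a median log2 ratio of -0.07 against low cells and -0.20 against Afp cells.

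Of 8 serpins compared, the 4 beyond the rule that passed 2-fold in either comparison were the Serpina1 copies a, b, d and e. The share of all genes was 1.05% against low cells and 2.59% against Afp cells. This count is a description. The cells were chosen by Serpina1c, whose transcript end is nearly identical to those of the copies, and Serpina1e was picked as a marker. In all, 16 of 30 listed serpins had no UMI in Serpina1c cells, Serpina6 and Serpina10 among them. Of 36 listed plasma proteins also made by liver, 19 were at 0. Of 9 compared with low cells, 1 was 1.5-fold or more higher and 1 lower, beside 8.42% and 4.42% of all genes. Their median log2 ratio was 0.23. Of 12 compared with Afp cells, 1 was higher and 4 lower, beside 11.6% and 5.33% of all genes, with a median of -0.34. Ttr, the transport protein transthyretin, stood at 2.63 in Serpina1c cells, 2.07 in low cells and 5.23 in Afp cells. Apoc3 stood at 4.76, 3.53 and 13.0, and Ambp, another precursor of a protease inhibitor, at 17.8, 14.8 and 23.8. Cfb, complement factor B, was 2.15-fold higher than in low cells (1.34 to 3.59) with 92 UMIs. Of 18 proteases listed as targets of serpins, 17 were in the files and 12 had no UMI. These counts of genes at 0 are a description, as the share of all genes at 0 is not given.

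Villus genes gave no single direction. Nt5e, the ectonucleotidase CD73, stood at 1.98 against 1.19 in low cells and 0.987 in Afp cells, and Krt20, a keratin of differentiated epithelium, at 8.43 against 4.73 and 6.18. Apoa4 stood at 2.51 and 3.98 in Serpina1c and low cells, and Creb3l3 at 0.140 and 0.344. In all, 2 of 8 villus genes were 1.5-fold or more higher than in low cells and 2 lower, beside 8.42% and 4.42% of all genes. Immediate early genes, which can also mark handling of cells, had a median log2 ratio of 0.31 against low cells, and Nr4a1 stood at 1.09 against 0.558. Their part in the other differences was not tested.

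Genes of other cell types were low but present. The enterocyte list summed to 68.9 in Serpina1c cells, 126 in low cells, 102 in Afp cells and 130 in free RNA. The goblet list summed to 380 in Serpina1c cells, 349 in low cells and 367 in Afp cells. It reached 4276 in goblet cells and 2251 in free RNA. Agr2, on the goblet list, stood at 27.2 in Serpina1c cells, 15.6 in low cells and 8.45 in Afp cells, with 28.0 in free RNA. The immune list summed to 2.89 and 1.97 in Serpina1c and low cells, and the tuft list to 2.93 and 2.59. The pancreatic acinar genes were all at 0, and of the hepatocyte genes Fgb and Ahsg were at 0. What these genes contribute to the differences was not tested.

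The Tph1 cells were clustered without the 11 genes of the rule, to see where the Serpina1c cells lay. Serpina1c cells took 237 places (43.9% of them) in a cluster of 361 cells and 190 (35.2%) in a cluster of 282, the largest and the 3rd largest of 10, and they were 65.7% and 67.4% of the cells there. Another 58 lay in cluster 2, where Afp cells were the most frequent with 222 of 352. They did not form a cluster of their own. Since Serpina1e and the other copies were among the genes that could enter, the clusters are a description.

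The Serpina1c cells of clusters 1 and 3 are set side by side as a description. Serpina1c stood at 19.0 and 22.2 in them, Serpina1e at 13.2 and 10.5, Hspb1 at 10.1 and 10.6, and Tgfb1 at 4.61 and 4.68. Sct stood at 550 in cluster 1 and 310 in cluster 3, Reg4 at 33.0 and 149, Cartpt at 18.0 and 36.1, Pyy at 15.6 and 11.0, and Gm42637 at 8.18 and 11.8. Stmn2 stood at 0.721 and 0.0551. In the Serpina1c cells of cluster 2, Reg4 reached 287 and Serpina1e was 6.54.

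The 4 smallest clusters, 96 cells in all, led with genes of other cell types: cluster 7 with Dmbt1 and Retnlb, cluster 8 with the tuft genes Rgs13 and Dclk1, cluster 9 with the lymphocyte genes Cd7, Ccl5 and Gzma, and cluster 10 with Sst and Iapp. They held 30 of the 540 Serpina1c cells (5.56%), with 10 in cluster 7 and 12 in cluster 8. Of the 245 low cells, 20 were in cluster 7 and 7 in cluster 8. Median depth was 9180 UMIs in cluster 7, 4444 in cluster 8 and 2782 in cluster 1. Low-cell sums include the deeper cells of clusters 7 and 8 unless stated. Without these 4 clusters the Serpina1c cells numbered 510 and their share of Tph1 cells was 31.1%. The summed level of the 5 markers was 54.2 instead of 50.8. Against low cells, Serpina1d was then 6.11-fold higher instead of 7.13-fold, Serpina1b 4.14 instead of 4.35 and Gm4792 3.37 instead of 4.48. Ghrl went the other way, at 4.44 instead of 4.29.

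**Figure D5:**
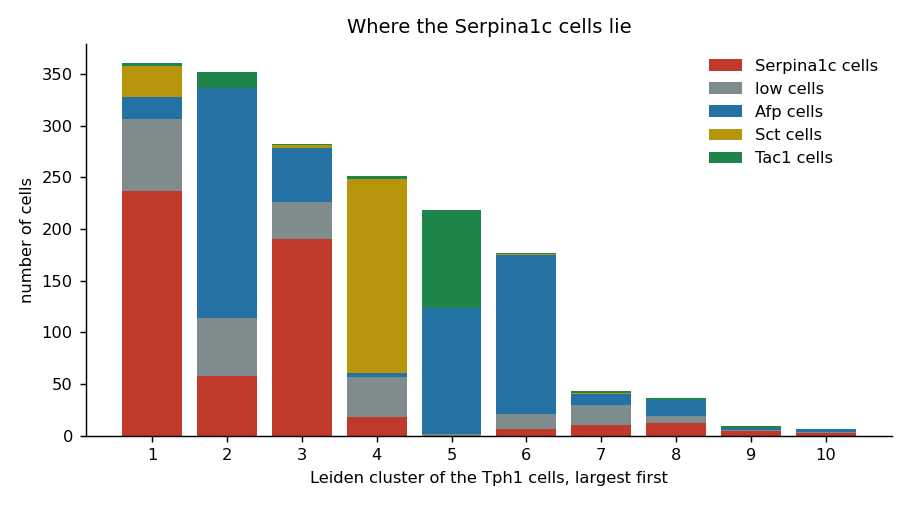
Number of Tph1 cells of each class in 10 Leiden clusters, largest first, with bars stacked by class. The 540 Serpina1c cells are most of clusters 1 and 3 (237 and 190 cells), share cluster 2 with Afp cells, and are absent from cluster 5, which holds 122 Afp cells, 94 Tac1 cells and 2 low cells.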

How the data were processed

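Single-cell counts of 1 library were used. The authors aligned reads to mm10 with Cell Ranger 2.0.1 and deposited UMI counts per gene without normalization or removal of empty droplets (475960 barcodes held a UMI). The sorted CCK+ and CCK- bulk table was not used here. Barcodes with more than 1000 genes and under 10% mitochondrial UMIs were kept, with no other cell calling and no doublet removal. The cells, markers and gene lists were chosen with earlier results of these data known. Levels are summed UMIs of a gene per 10000 UMIs of the class, with exact Poisson 95% intervals. Ratios use exact conditional intervals, and shares use Clopper-Pearson intervals. They cover counting error only. Ratios were counted past 2-fold for genes with 50 or more UMIs over both classes, and a class under 3 UMIs was taken at 3 UMIs. No test was made, since 1 library has no replicates. Named genes were the markers, the genes of the rule, the 12 highest and 12 lowest ratios of each comparison, and from each list the gene with the highest level and those past 1.5-fold. A gene among the 12 lowest ratios against low cells is not reported here. Others are marked in the text as chosen after their values were seen or given as list values. Clustering used scanpy 1.11.5 and leidenalg 0.10.2 (2000 variable genes, 40 components, 15 neighbors, resolution 1, seed 1). Ratios and intervals were checked on simulated counts. Alternatives changed the cell limits, the limits on Serpina1c and Afp, doublet scores, depth, fold and UMI limits, and clustering.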

Additional observations from a re-analysis of the deposited data

How the results depend on the processing

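No paired analysis was possible because there is 1 library. The number of Serpina1c cells was 540 and moved to 140 with more than 1500 genes per cell and to 65 with barcodes that the Cell Ranger 2 rule calls. Their share of Tph1 cells was 31.1% and was 18.4% with the Cell Ranger 2 rule, 24.0% and 36.2% with Serpina1c limits of 10 and 3, 25.7% with 3 UMIs of Serpina1c, 25.2% with no Afp UMI, 34.3% with Afp under 10 and 28.7% after thinning. Median depth was 2578 with more than 500 genes, 3821 with more than 1500, 4543 with the Cell Ranger 2 rule and 2848 with 3 UMIs of Serpina1c. The summed level of the 5 markers was 50.8 and became 52.7 as a mean over cells, 46.1 with more than 1500 genes, 52.7 at a mitochondrial limit of 5%, 40.1 with the Cell Ranger 2 rule, 58.3 and 47.3 at Serpina1c limits of 10 and 3, 53.7 with 3 UMIs of Serpina1c, 52.1 with no Afp UMI, 53.7 without the 715 highest Scrublet scores and 54.2 without the 4 smallest clusters. The share with a Serpina1e UMI was 64.3% at 2 or more UMIs and 74.7% after thinning. The largest share in 1 cluster was 78.3% at resolution 0.5, 17.6% at resolution 2 and 52.8% with 20 components. Leaving out the 4 smallest clusters and each gene's highest cell were chosen after seeing the data.

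Genes higher than in low cells numbered 113 with more than 1500 genes, 37 and 159 at Serpina1c limits of 10 and 3, 474 at 1.5-fold, 7 at 3-fold, 263 at 20 UMIs, 7 at 200 UMIs and 102 without each gene's highest cell, which takes more from the smaller class. Genes lower than in low cells numbered 48 at a mitochondrial limit of 5%, 42 with no Afp UMI, 47 after thinning, 12 without the 4 smallest clusters, 249 at 1.5-fold, 43 at 3-fold, 216 at 20 UMIs and 29 at 200 UMIs. Genes higher than in Afp cells numbered 87 with more than 1500 genes, 76 with the Cell Ranger 2 rule, 112 after thinning, 782 at 1.5-fold, 40 at 3-fold, 416 at 20 UMIs and 42 at 200 UMIs. Genes lower than in Afp cells numbered 93 with more than 1500 genes, 90 with the Cell Ranger 2 rule, 360 at 1.5-fold, 61 at 3-fold, 338 at 20 UMIs and 47 at 200 UMIs.

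Against low cells some ratios turned direction. With no Afp UMI, Gm15315 and Defa23 were at 1.72, Gm21002 at 1.58, Defa20 at 1.08, Defa21 at 1.66, AY761184 at 1.83, Gm14851 at 1.59 and Gm15293 at 1.17. Gzma was at 0.504 with more than 500 genes, 0.840 with Afp under 10 and 0.0484 after thinning, and Ccl5 was at 0.0637 after thinning. Ghrl was at 0.997 without the highest Scrublet scores. Without the 4 smallest clusters, Ccl5 was at 0.743, Gm21002 at 1.87, Defa21 at 1.06 and AY761184 at 1.27. All 24 genes named against Afp cells stayed past 2-fold under each alternative cell set and without each gene's highest cell. Of the 23 named against low cells, 10 did so with no Afp UMI, 11 without the 4 smallest clusters and 16 after thinning. The cause of these moves was not tested.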
